A study of Arabidopsis thaliana with 9 samples.

Results

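The copper transport and chaperone genes of Arabidopsis thaliana are described here in shoots of wild type Col-0 plants under 3 iron conditions. The set holds 10 listed loci: the chaperones CCH (AT3G56240) and ATX1 (AT1G66240), the transporters COPT1 (AT5G59030), COPT2 (AT3G46900) and COPT5 (AT5G20650), the transcription factor SPL7 (AT5G18830), and the copper-transporting P-type ATPases HMA5 (AT1G63440), RAN1 (AT5G44790), PAA1 (AT4G33520) and PAA2 (AT5G21930). They account for 22 of the 55442 transcripts measured by RNA-seq, and for 10 of 34262 loci. Members were taken by locus name, from a list chosen with earlier results of these data known.

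All 9 samples, 3 per condition, came from plants that spent 14 days on MS-based medium with iron before being moved. For +Fe, iron was present during the next 3 days and the closing 24 h. For -Fe, iron was absent from both periods. For Fe resupply, it was absent for the 3 days and given back for the closing 24 h. The samples are of whole shoots, so fewer cells of a type and less RNA per cell cannot be told apart. The 4 photosynthesis genes listed as shoot markers stood at 4416 to 12415 CPM, while the 6 root genes stood at no more than 3.89 CPM and 3 of these were at 0 in every condition.

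Copper enters plant cells through COPT proteins at the plasma membrane and is passed by small soluble chaperones to ATPases that pump it into compartments. Inside the chloroplast it is needed by plastocyanin and by a copper/zinc superoxide dismutase. SPL7 is the regulator that raises copper uptake and chaperone genes when copper is short, through the core motif GTAC in their promoters. The same response lowers copper/zinc superoxide dismutases through microRNAs and puts the iron enzyme FSD1 in their place.

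The values are averages. For each transcript the authors deposited 1 average log2 CPM (CPM is the count of a transcript scaled to the size of the library) per pair of conditions, and no value per sample is used here. The level of each condition was solved from the 3 averages, taken as plain means. For -Fe, it is the average of -Fe and +Fe plus that of -Fe and Fe resupply minus that of Fe resupply and +Fe. Levels solved as below 0 were set to 0, the lowest at -0.896 CPM in -Fe. These levels are set across 3 tables that were normalised separately, after scaling by factors of 1, 1.0154 and 1.0226. They carry no replicate error, so no difference below has a test and none is called significant. Ratios are log2 ratios of such levels with 1 CPM added to both. The smallest step in the tables, that of 1 count in 1 library, is 0.132 to 0.169 CPM as a condition level.

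The uptake transporter gene COPT2 and the chaperone gene CCH had lower levels in -Fe and in Fe resupply than in +Fe, and COPT2 had the lowest ratios of the 9 genes that reached a mean level of 5 CPM. COPT2 (chromosome 3, 17268875 to 17269510, plus strand, 1 exon) encodes a high-affinity copper transporter of the plasma membrane. The authors' averages for its only transcript, AT3G46900.1, were 20.3 CPM for -Fe with +Fe, 12.7 CPM for -Fe with Fe resupply and 19.0 CPM for Fe resupply with +Fe, once the floor of each table was removed. The lowest of these averages is thus that of the pair without +Fe. The solved levels of COPT2 were 26.8 CPM (+Fe), 13.7 CPM (-Fe) and 12.1 CPM (Fe resupply). The -Fe level was 51.2% of the +Fe level, and the Fe resupply level was 45.1% of it. As log2 ratios to +Fe these are -0.92 and -1.09, below which lay 2.25% and 0.604% of all genes at 5 CPM or more. The ratio of -Fe to Fe resupply was 0.17 on the log2 scale. The Fe resupply ratio lies close to the 2-fold line, at -0.99 when the floor is left in.

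CCH (AT3G56240.1 at chromosome 3, 20863139 to 20864622, minus strand, 3 exons) encodes a copper chaperone. The authors' averages for AT3G56240.1 were 264.7 CPM for -Fe with +Fe, 194.0 CPM for -Fe with Fe resupply and 256.7 CPM for Fe resupply with +Fe. Here too the average without +Fe is the lowest. Summed over its 3 transcripts, CCH stood at 332.3 CPM (+Fe), 199.9 CPM (-Fe) and 196.1 CPM (Fe resupply). The levels in -Fe and Fe resupply were 60.2% and 59.0% of that in +Fe, with log2 ratios of -0.73 and -0.76. Lower ratios were found for 3.77% and 2.24% of genes. Between -Fe and Fe resupply the log2 ratio of CCH was 0.03. AT3G56240.1 carried nearly all of this, at 330.2 CPM, 199.2 CPM and 194.8 CPM. AT3G56240.2 was at 2.01 CPM or less, and AT3G56240.3 at 0.140 CPM in +Fe, about the level of a single count, and at 0 elsewhere.

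CCH and COPT2 were also the members with the most copies of GTAC close to their start. The motif reads the same on both strands, and it was counted in the 300 bases before the annotated start of the first transcript of each gene. Both genes have 4 copies there. Of 27406 such windows of protein-coding genes, 39.5% hold at least 1 copy and 0.463% hold at least 4. In COPT2 the copies begin at bases -143, -106, -100 and -92 from the start, and in CCH at -123, -101, -74 and -68. The stretches are printed 5′ to 3′ with GTAC in capitals, from the TAIR10.1 genome, because both genes had the lowest levels relative to +Fe among those at 5 CPM or more. For CCH the first exon of AT3G56240.3 overlaps the window, so the bases upstream of that exon are followed by runs of 30 bases around the remaining copies. The places are chr3:17268575-17268874 (plus strand) for COPT2, and chr3:20864728-20864922, chr3:20864707-20864736 and chr3:20864677-20864706 (minus strand) for CCH.
COPT2 upstream: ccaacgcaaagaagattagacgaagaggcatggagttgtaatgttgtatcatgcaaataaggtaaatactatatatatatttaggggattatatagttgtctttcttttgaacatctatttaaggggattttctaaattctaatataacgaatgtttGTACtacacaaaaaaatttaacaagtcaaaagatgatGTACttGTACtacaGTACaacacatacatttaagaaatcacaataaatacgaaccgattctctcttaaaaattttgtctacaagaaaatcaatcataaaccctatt
CCH copy at -123: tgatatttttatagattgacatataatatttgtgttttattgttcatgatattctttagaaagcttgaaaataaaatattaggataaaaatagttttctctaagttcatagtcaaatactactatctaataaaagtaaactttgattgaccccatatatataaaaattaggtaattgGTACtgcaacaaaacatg
CCH copy at -101: caaaacatgtgtaGTACaaggagacctcat
CCH copies at -74 and -68: agaattctttGTACttGTACtttctgttag
In both genes the pair GTACttGTAC appears, with 2 bases between the copies.

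**Figure D1:**
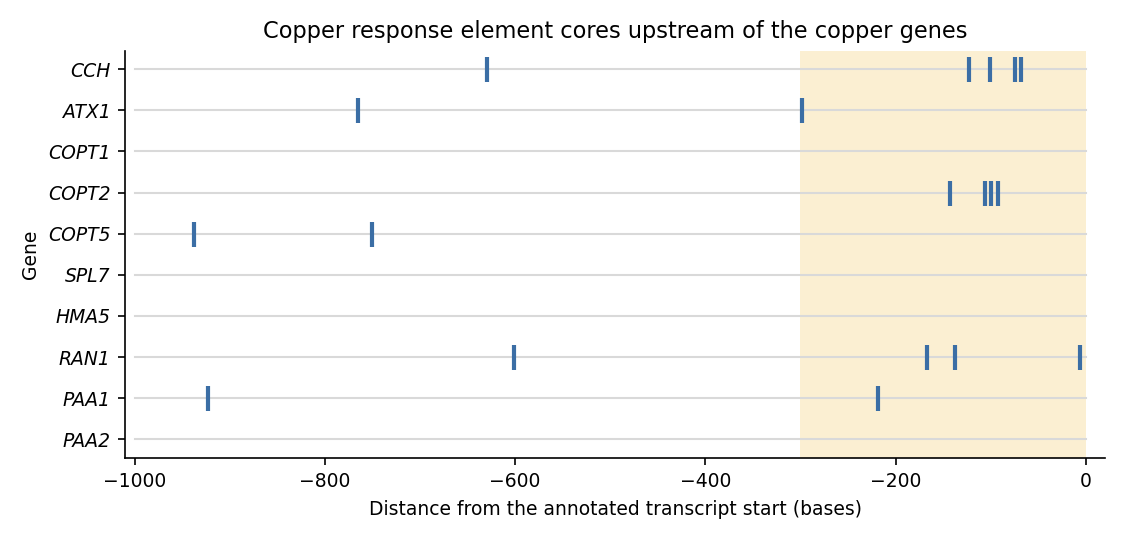
Positions of GTAC (blue ticks) in the 1000 bases before the annotated start of the first transcript of each of the 10 genes, in bases from that start on the horizontal axis; shading marks the 300 bases used for counting. CCH and COPT2 have 4 ticks each in the shaded part and RAN1 has 3, while COPT1, SPL7, HMA5 and PAA2 have none in the whole window.

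RAN1 was next, with 3 copies in its 300 bases, a number that 2.16% of windows reach. Its level in -Fe, however, was 105% of that in +Fe. ATX1 and PAA1 have 1 copy each, and the remaining 5 genes have none. The windows of COPT5, PAA1 and PAA2 overlap a neighbouring gene. In the longer stretch of 1000 bases CCH has 5 copies, and COPT2 and RAN1 have 4 each. At least 4 copies are found in 13.1% of all windows of 1000 bases. A match to 4 letters is a description of the sequence and was not tested as a binding site.

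COPT1 and COPT5 varied less than COPT2. COPT1 (chromosome 5, 23833493 to 23834745, minus strand, 1 exon), a plasma membrane copper transporter, stood at 79.4 CPM (+Fe), 68.3 CPM (-Fe) and 76.8 CPM (Fe resupply). Its log2 ratios to +Fe were -0.21 and -0.05, well inside the bulk of genes, of which 24.5% and 44.1% had lower ratios. COPT5 (chromosome 5, 6985298 to 6986037, minus strand, 1 exon), which moves copper out of the vacuole, stood at 55.8 CPM (+Fe), 45.1 CPM (-Fe) and 52.0 CPM (Fe resupply). Its log2 ratios were -0.30 and -0.10. For both genes the level in Fe resupply lay between those of -Fe and +Fe. COPT2 had its lowest level in Fe resupply, but its log2 ratio of -Fe to Fe resupply was only 0.17. These orders rest on small differences and were not tested.

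ATX1 (chromosome 1, 24686114 to 24687417, minus strand) is the chaperone most like CCH and delivers copper to RAN1 and HMA5. Its level was 60.6 CPM (+Fe), 56.5 CPM (-Fe) and 45.3 CPM (Fe resupply). The log2 ratio to +Fe was -0.10 in -Fe and -0.41 in Fe resupply, and 8.97% of genes had a lower ratio in the latter comparison. The difference is thus seen in Fe resupply and hardly in -Fe, whereas CCH was at about the same level in both. Transcript AT1G66240.1 carried nearly all of it, at 60.3 CPM, 54.3 CPM and 45.1 CPM. AT1G66240.2, which has a shorter coding sequence of 201 bases, was at 2.195 CPM in -Fe and at 0.314 CPM and 0.148 CPM in +Fe and Fe resupply, and AT1G66240.3 was at 0 throughout.

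SPL7 (AT5G18830.1 at chromosome 5, 6275895 to 6280681, plus strand, 10 exons) stood at 28.4 CPM (+Fe), 22.7 CPM (-Fe) and 23.2 CPM (Fe resupply). These are log2 ratios to +Fe of -0.31 and -0.28, with 17.3% and 16.2% of genes lower. All of this level belonged to AT5G18830.1, since the other transcripts, AT5G18830.2 and AT5G18830.3, were at 0. HMA5, which exports copper and is best known from roots, was the member that did not reach 5 CPM. Its single transcript AT1G63440.1 (chromosome 1, 23527570 to 23531226, plus strand, 6 exons) had 2.08 CPM (+Fe), 0.778 CPM (-Fe) and 1.504 CPM (Fe resupply), which correspond to about 14, 5 and 10 counts. At this depth no difference can be read from it. RAN1, which loads copper into ethylene receptors in the endomembrane system (chromosome 5, 18075562 to 18080160, minus strand, 9 exons), stood at 59.1 CPM, 61.9 CPM and 54.5 CPM in +Fe, -Fe and Fe resupply, a log2 ratio of 0.07 and -0.12 to +Fe.

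**Figure D2:**
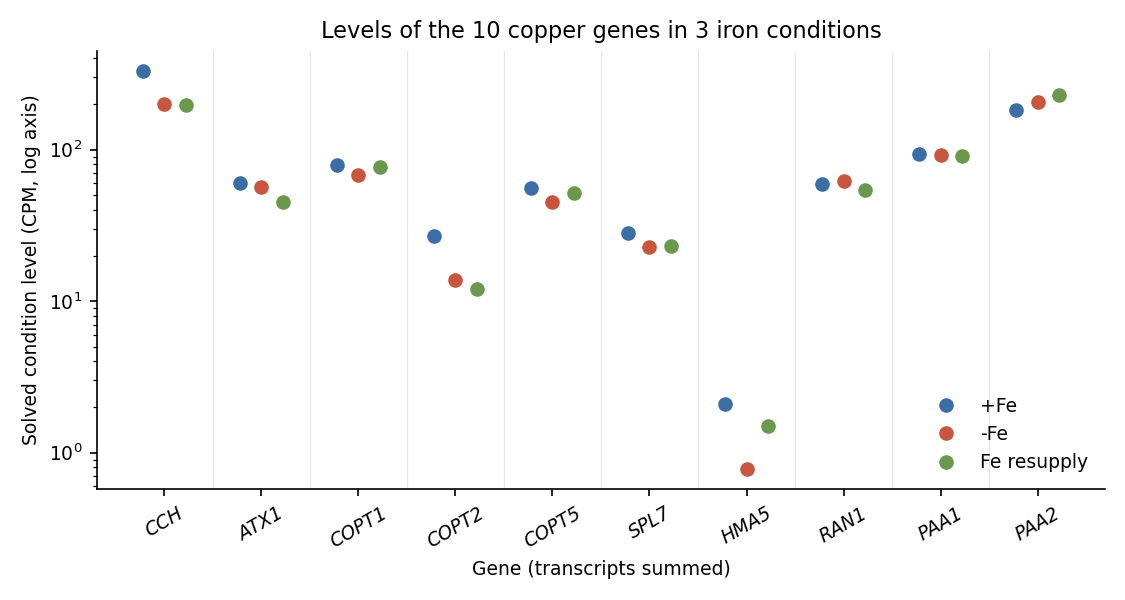
Solved condition levels in CPM (log axis) of the 10 genes, transcripts summed, in +Fe (blue), -Fe (red) and Fe resupply (green). Points are levels solved from the authors' averages and have no error bars; CCH is at 332.3 CPM in +Fe against 199.9 CPM and 196.1 CPM, COPT2 at 26.8 CPM against 13.7 CPM and 12.1 CPM, and PAA1 lies between 90.9 CPM and 94.0 CPM.

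The plastid ATPases PAA1 and PAA2 differed from each other in how their transcripts were made up. PAA1 brings copper across the chloroplast envelope, and PAA2 moves it from the stroma into the thylakoid lumen, where plastocyanin works. PAA2 as a whole gene was at 182.2 CPM (+Fe), 205.1 CPM (-Fe) and 231.3 CPM (Fe resupply), with log2 ratios to +Fe of 0.17 and 0.34. In the last of these comparisons 90.6% of genes had a lower ratio. This sum hides opposite values of its 2 main transcripts.

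Transcripts AT5G21930.1 and AT5G21930.4 both span chromosome 5 from 7243015 to 7249134 on the plus strand and differ by a single intron. AT5G21930.1 has 16 exons and removes intron 14 of 15, which lies at 7248218 to 7248348 and is 131 bases long. AT5G21930.4 has 15 exons and keeps it. Reading through the retained intron meets a stop codon, so the coding sequence of AT5G21930.4 is 820 codons long and that of AT5G21930.1 is 883 codons. The stretch at chr5:7248182-7248271 (TAIR10.1, plus strand) is shown because it holds the difference between these transcripts: lower case is the last 36 bases of the exon, capitals are the first 54 bases of the retained intron, and the final TGA is the stop codon of AT5G21930.4.
PAA2 retained intron: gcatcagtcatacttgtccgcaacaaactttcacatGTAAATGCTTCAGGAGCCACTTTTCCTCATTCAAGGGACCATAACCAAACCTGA

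The authors' averages for AT5G21930.1 were 46.6 CPM for -Fe with +Fe, 87.2 CPM for -Fe with Fe resupply and 58.3 CPM for Fe resupply with +Fe. For AT5G21930.4 they were 146.4 CPM, 127.7 CPM and 143.2 CPM in the same order. The pair without +Fe is the highest for the spliced form and the lowest for the form with the intron. The solved level of AT5G21930.1 was 17.6 CPM (+Fe), 75.5 CPM (-Fe) and 101.6 CPM (Fe resupply), log2 ratios to +Fe of 2.04 and 2.46. That of AT5G21930.4 was 163.2 CPM (+Fe), 129.6 CPM (-Fe) and 129.7 CPM (Fe resupply), log2 ratios of -0.33 in both. As a share of the gene, AT5G21930.1 was 9.68% in +Fe, 36.8% in -Fe and 43.9% in Fe resupply. Dividing by transcript length first gives 10.02%, 37.8% and 44.9%.

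Such moves of share were not rare in these tables. Of 3657 genes with several transcripts and at least 20 CPM in each condition, 12.4% had a transcript whose share moved by at least 25 percentage points between -Fe and +Fe, and 13.7% between Fe resupply and +Fe. The move in PAA2 was 27.1 points and 34.3 points in these comparisons, more than in 89.8% and 93.7% of the 3657 genes. The threshold of 25 points was chosen after the values were seen. Reads outside the intron fit both forms and were divided by the authors' quantification, and without values per sample it is not known whether every sample of a condition shows the move. AT5G21930.3 was at 1.36 CPM in +Fe and under the level of 1 count in the other conditions, and AT5G21930.2 was at 0.

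PAA1 showed no comparable move. Its short transcript AT4G33520.1 (chromosome 4, 16118855 to 16120953, plus strand, 5 exons, 237 codons) stops before the membrane part and corresponds to the form known to encode a plastid copper chaperone. It stood at 78.8 CPM (+Fe), 77.9 CPM (-Fe) and 78.8 CPM (Fe resupply). The full-length transcript AT4G33520.2 (16118830 to 16126151, 17 exons, 949 codons) stood at 14.7 CPM, 13.3 CPM and 11.2 CPM in the same order. The short form was 83.9% to 86.7% of the gene, or 93.5% to 94.4% when divided by length. The largest move of share in PAA1 was 1.17 points between -Fe and +Fe and 3.28 points between Fe resupply and +Fe. Of the other PAA1 transcripts, AT4G33520.4 was at 0.453 to 0.934 CPM and AT4G33520.3 at 0.

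**Figure D3:**
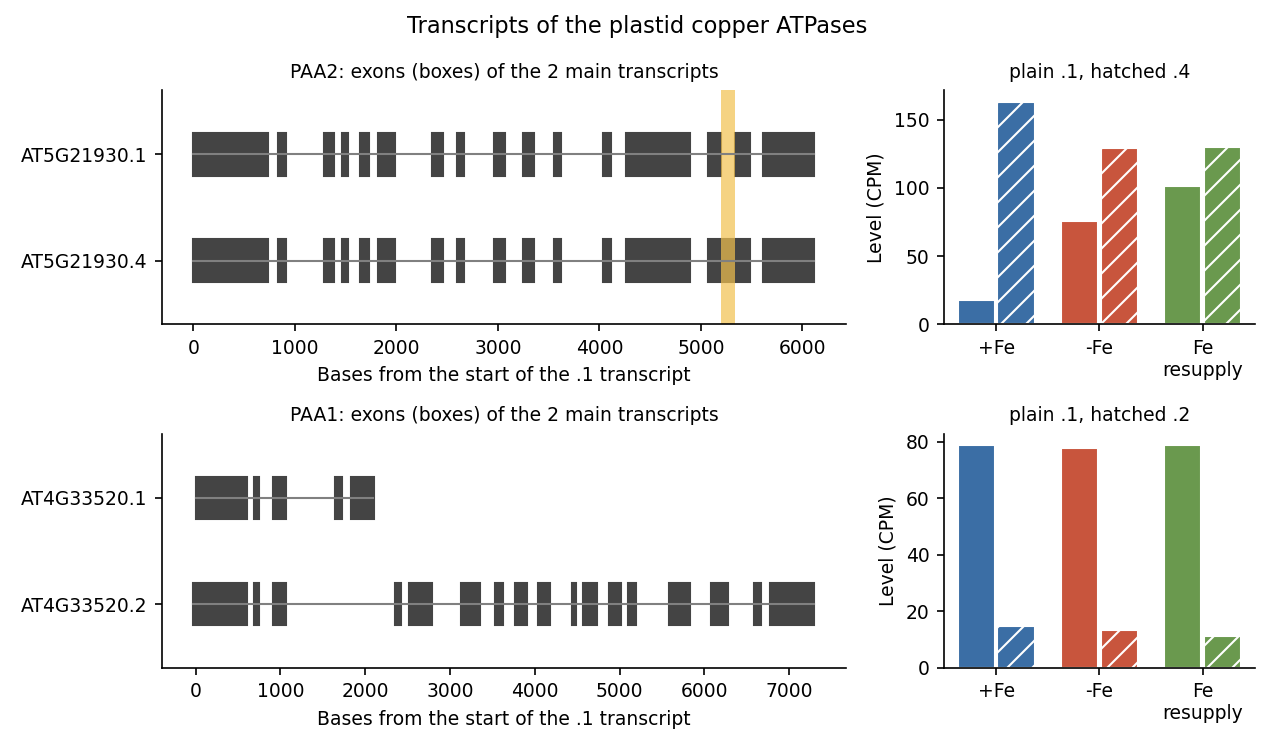
Left, exons (boxes) of the 2 main transcripts of PAA2 and PAA1, in bases along the gene, with the intron kept by AT5G21930.4 in yellow; right, their solved levels in CPM in +Fe, -Fe and Fe resupply, plain bars for AT5G21930.1 and AT4G33520.1 and hatched bars for AT5G21930.4 and AT4G33520.2, with no error bars because no value per sample is used. The plain PAA2 bar is at 17.6 CPM in +Fe and at 75.5 CPM and 101.6 CPM in the other conditions, and the PAA1 bars stay within 77.9 to 78.8 CPM and 11.2 to 14.7 CPM.

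The comparison of -Fe with +Fe asks which transcripts differ under iron deficiency. Of the 22 member transcripts, 11 reached a mean level of 5 CPM, 6 were measured below it and 5 were at 0 in every table. In this comparison 1 of the 11, AT5G21930.1, was past 2-fold (an absolute log2 ratio of at least 1), where 9.92% of all 16623 transcripts at 5 CPM or more were past it in either direction. With transcripts summed to genes, 9 members reached 5 CPM and 2 of them, COPT2 and CCH, were at least 1.5-fold lower in -Fe, where 6.24% of 14078 genes were. The median log2 ratio of the 9 genes was -0.21 and that of all genes -0.01.

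The comparison of Fe resupply with +Fe asks what still differs after 24 h of iron. Here 2 of the 11 transcripts were past 2-fold, AT5G21930.1 as the higher and COPT2 as the lower, with 8.57% of all transcripts past it. Among the genes COPT2 and CCH were again at least 1.5-fold lower, where 4.57% of genes were. The median log2 ratio was -0.12 for the 9 genes and -0.01 for all. Both comparisons use the same +Fe libraries, so a high or low value in these would appear in both.

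The comparison of -Fe with Fe resupply does not involve the +Fe libraries. No member transcript was past 2-fold in it, where 10.4% of all transcripts were, and no member gene was at least 1.5-fold lower in -Fe, where 6.4% of genes were. The log2 ratios of the 9 genes ran from -0.20 for COPT5 to 0.31 for ATX1. No p-value stands behind these counts, and shares near those of all transcripts say nothing particular about the members.

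**Figure D4:**
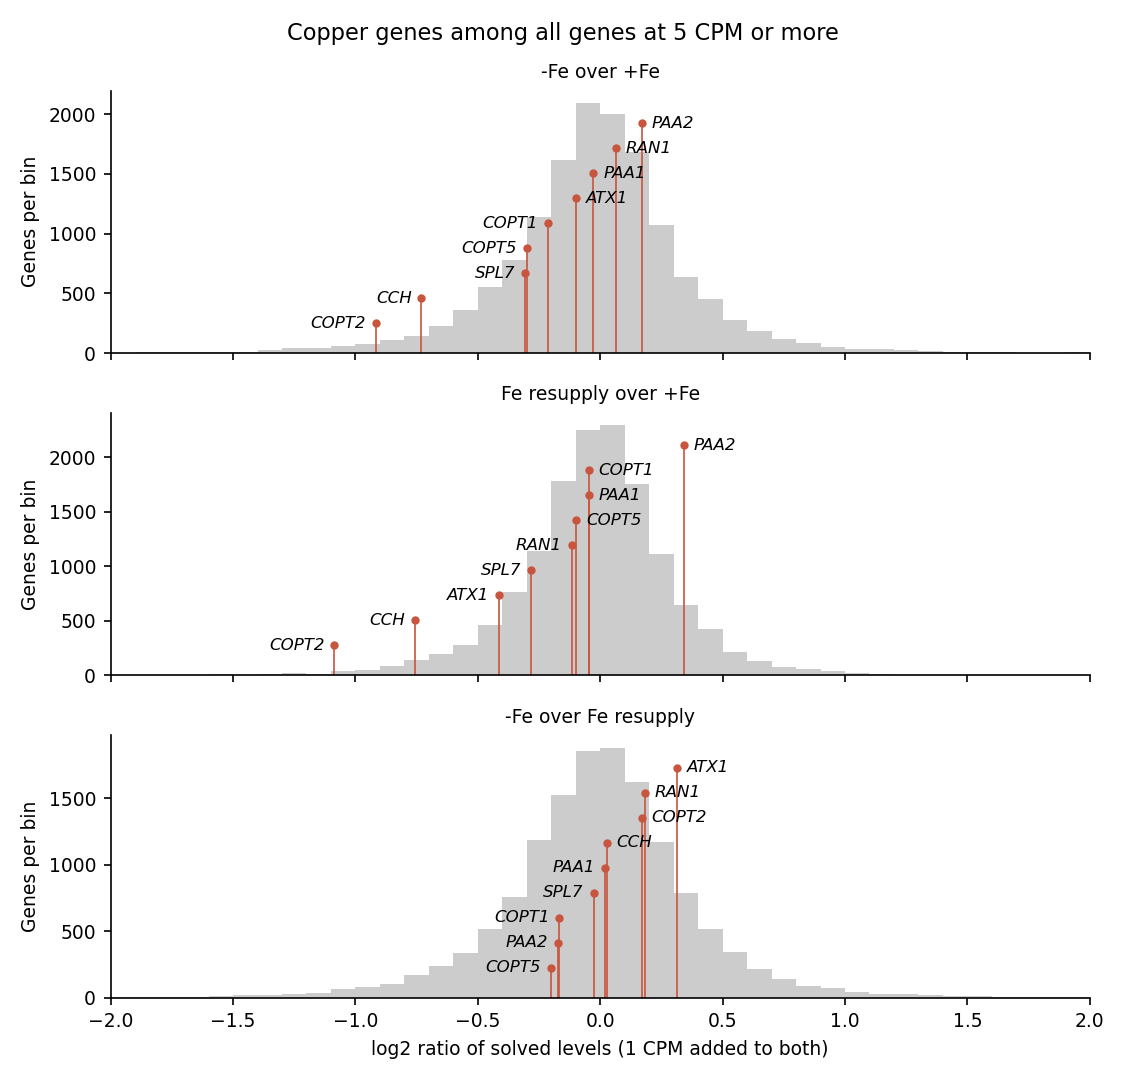
Log2 ratios of solved levels for the 9 copper genes at 5 CPM or more (red lines and names, drawn to different heights only to separate the labels) over the histogram of all 14078 such genes in grey, with genes per bin on the vertical axis, in 3 panels for -Fe over +Fe, Fe resupply over +Fe and -Fe over Fe resupply. COPT2 at -0.92 and -1.09 and CCH at -0.73 and -0.76 lie in the lower tail of the first panels and at 0.17 and 0.03 in the last.

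Of 38 other copper genes listed by their known roles, 35 matched a reference symbol and 16 reached 5 CPM. In -Fe vs +Fe, 4 of the 16 were at least 1.5-fold higher, 1 was at least 1.5-fold lower and 11 lay between. Of all 14078 genes at 5 CPM or more, 4.66% were that much higher and 6.24% that much lower. The counts for Fe resupply vs +Fe were the same 4, 1 and 11, where 2.83% of all genes were higher and 4.57% lower. The 4 listed genes that were higher included the copper/zinc superoxide dismutase genes CSD1 and CSD2 and the chaperone CCS that loads copper into them. The other was the blue copper protein gene BCB, with 33.2 CPM (+Fe), 59.9 CPM (-Fe) and 52.8 CPM (Fe resupply). CSD1 stood at 18.4 CPM, 164.2 CPM and 161.2 CPM in +Fe, -Fe and Fe resupply, CCS at 19.95 CPM, 114.6 CPM and 114.9 CPM, and CSD2 at 17.7 CPM, 363.2 CPM and 375.9 CPM. The lower one was FSD1, with 546.4 CPM (+Fe), 41.3 CPM (-Fe) and 138.5 CPM (Fe resupply). In both comparisons with +Fe, CCH and COPT2 were lower, as was FSD1, while CCS was higher. Of the 9 member genes at 5 CPM or more, 7 had a log2 ratio below 0 in -Fe and 8 in Fe resupply. The shares of all genes below 0 were 52.2% and 51.6%. The log2 ratio of -Fe to Fe resupply was -1.72 for FSD1, 0.03 for CCH and 0.17 for COPT2. Whether these genes share a regulation was not tested. Plastocyanin, the main copper protein of the thylakoid, had log2 ratios of 0.17 and 0.08 to +Fe for PETE1 and 0.20 and 0.16 for PETE2.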

How the data were processed

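RNA-seq libraries of Col-0 shoots were made for 3 conditions with 3 samples each. Reads were trimmed by the authors with Trimmomatic 0.36.5, mapped them to TAIR10 with HISAT2 2.1.0, quantified transcripts with StringTie 1.3.3.2 and ran edgeR 3.20.7.2 (versions as in the submitters' processing notes). The 3 deposited tables, 1 per pair of conditions, hold an average log2 CPM over the libraries of that pair, and 4 further columns of the authors' own comparison (log2 fold change, F, p-value and adjusted p-value) that were not used. What the authors gave to edgeR is not given in the sources used here, so depth in reads is unknown and no interval is given. The tables show 12 single-count levels each where the labels give 6 samples a pair, and their floor matches a mean library of 1124869 to 1142468 counts if the prior count was 2.

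The floor was subtracted on the linear scale, the tables were scaled to a common median over transcripts above 10 CPM, and condition levels were solved from the 3 averages. Transcripts at the floor of 1 table must have equal levels in the other 2: after scaling, the medians of their log2 ratios were -0.01, -0.00 and 0.00 over 124, 107 and 99 transcripts. Ratios used a pseudocount of 1 CPM and a mean level of at least 5 CPM. Levels of different genes are not ranked, since it is not stated whether they were divided by length.

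Members, lists and thresholds were chosen with earlier results of these data known. Named were all member transcripts and, of 38 other copper genes fixed by locus, those past 1.5-fold or needed to read a member. The 3 whose symbol did not match the reference, listed as CITF1, COX17-2 and COX11, were left out of the counts. CITF1 (AT1G71200) was at 2.69 CPM (+Fe), 0.466 CPM (-Fe) and 0.00270 CPM (Fe resupply), the last under the level of 1 count. Symbols, positions and sequences come from RefSeq's TAIR10.1 annotation and genome, in which 53219 of the 55442 transcripts have a name match. The tables hold no coordinates. Python 3.11.15 and pandas 2.3.3 were used.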

Additional observations from a re-analysis of the deposited data

How the results depend on the processing

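No test was run, so the alternatives bear on values and counts. Of 195 alternative values of the members' log2 ratios, 184 stayed within 0.1 of the value given, 11 moved further and 4 changed sign, the largest of these with a value of 0.34. Those that moved belong to HMA5, to AT5G21930.1 in Fe resupply vs +Fe (2.36 with the floor left in) and to PAA2 when its highest transcript stands for the gene, which gives -0.33 for both conditions against +Fe and -0.00 between -Fe and Fe resupply. HMA5 ran from -1.01 to -0.45 in -Fe vs +Fe. The COPT2 ratio in Fe resupply vs +Fe ran from -1.14 to -0.99, and that of CCH from -0.81 to -0.74.

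In the order -Fe vs +Fe, Fe resupply vs +Fe and -Fe vs Fe resupply, 1649, 1425 and 1734 transcripts were past 2-fold. With no filter on low levels these were 4210, 3837 and 4334, over transcripts off the floor in every pair of conditions. They were 375, 288 and 416 with a mean of at least 20 CPM, 3695, 3275 and 3940 at 1.5-fold, and 444, 176 and 445 summed to genes. Of the members 1, 2 and 0 transcripts were past 2-fold. Without the filter, again over transcripts off the floor in every pair, the first and last counts became 2 and 1. AT5G21930.3 is so left out, though its log2 ratio to +Fe was -1.24 in -Fe and in Fe resupply. In Fe resupply vs +Fe the count was 1 at 20 CPM, 1 with the floor left in and 1 summed to genes. In -Fe vs +Fe it was 3 at 1.5-fold and 0 summed to genes. With thresholds chosen after seeing the data, a share moved by 10 points in 1413 genes (-Fe vs +Fe) and 1434 (Fe resupply vs +Fe), and by 40 points in 111 and 119, against 452 and 500 at 25 points.

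No paired analysis was possible because the averages hold no value per sample. For the same reason no replicate was left out, and whether 1 library sets a level is not known.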

Other observations

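Several copper genes below 5 CPM on average had levels that differ between conditions by more than a few counts. Plantacyanin, a blue copper protein of the cell wall, was at 0.0345 CPM (+Fe), 2.72 CPM (-Fe) and 6.16 CPM (Fe resupply). The laccase gene LAC2 was at 0.0213 CPM, 1.79 CPM and 4.47 CPM in the same order. Both +Fe levels are under that of 1 count. The copper reductase gene FRO4 was at 6.50 CPM (+Fe), 0.486 CPM (-Fe) and 7.63 CPM (Fe resupply), so its low level was found in -Fe and not in Fe resupply, unlike that of COPT2. Counts at these levels are few, and the division of reads between FRO4 and its paralog FRO5, which was at 0, is uncertain.

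Of the 3 matched genes for copper delivery to cytochrome oxidase in mitochondria, COX17 (AT3G15352) and HCC1 were past 1.5-fold in a comparison, with their highest levels in -Fe. COX17 was at 4.31 CPM (+Fe), 6.70 CPM (-Fe) and 3.02 CPM (Fe resupply), and HCC1 at 2.65 CPM, 4.56 CPM and 3.59 CPM. HCC2, the other matched gene, and COX17-2, whose symbol did not match, also had their highest level in -Fe. COX11, also unmatched, had its lowest level in -Fe, with log2 ratios of -0.519 (-Fe to +Fe) and -0.578 (-Fe to Fe resupply). Among these genes only COX11 reached a mean level of 5 CPM. These values carry no replicate error.

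The other matched genes past 1.5-fold in a comparison stood at 1.502 CPM or less. The locus of the microRNA miR408, part of the copper response, was at 0.00287 CPM in +Fe, under the level of 1 count, and at 0.937 CPM and 1.18 CPM in -Fe and Fe resupply. That of miR398c, of the microRNA family that lowers copper/zinc superoxide dismutases, was at 1.502 CPM in +Fe, 0 in -Fe and 0.156 CPM, about 1 count, in Fe resupply. The symbols of these loci are MIR408 and MIR398C, and the levels are of precursor RNA, not of the mature microRNA. The laccase gene LAC7 was at 0.927 CPM in -Fe and under the level of 1 count in the other conditions. No difference can be read from so few counts.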
